A study of Mus musculus with 6 samples.

Results

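The subunits of complex I that are encoded by mitochondrial DNA were followed in the brains of offspring at postnatal day 21. The table of counts was searched for 7 rat Ensembl identifiers, and all 7 were found among its 32623 genes. They are mt-Nd1 (ENSRNOG00000030644), mt-Nd2 (ENSRNOG00000031033), mt-Nd3 (ENSRNOG00000033615), mt-Nd4 (ENSRNOG00000029707), mt-Nd4l (ENSRNOG00000031053), mt-Nd5 (ENSRNOG00000029971) and mt-Nd6 (ENSRNOG00000029042). The 3 MHFD animals were offspring of dams given a high-fat diet (MHFD) before mating, in pregnancy and while suckling. The 3 MND animals were offspring of dams kept on a normal diet (MND). One library was made from the brain of each animal. The labels describe C57BL/6 mice and the study's methods describe Sprague-Dawley rats; every identifier in the table is a rat one. The sex of the sequenced pups and the litters they came from are not given in the sources used here. The symbols of the 7 genes came from the list of members and not from the table. No other gene could be named, so the labelled tissue could not be checked against marker genes.

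Complex I, or NADH:ubiquinone oxidoreductase, is the entry point of electrons from NADH into the respiratory chain of mitochondria. It moves protons across the inner membrane as it passes the electrons to ubiquinone. The subunits encoded by mitochondrial DNA lie in its membrane arm and include those through which protons cross. The other subunits are encoded by nuclear genes. The heavy strand of the mitochondrial genome is transcribed as a long precursor that is cut into single messenger RNAs, mt-Nd4l and mt-Nd4 staying together on the same one. The message of mt-Nd6 comes from the opposite strand. In the mouse reference (GRCm38.p6) the genes follow each other as ND1, ND2, ND3, ND4L, ND4, ND5 and ND6, with ND4L overlapping ND4 and ND5 overlapping ND6. Neurons draw most of their energy from this chain.

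The library totals lay between 43679373 and 61385917 counts, and 18558 to 18912 genes had a count in each library. The counts of 3 or 4 of the 7 genes were among the 10 highest of each library. How messenger RNA was selected, whether strand was kept and how reads shared with nuclear copies of mitochondrial DNA were counted are not given in the sources used here. Brain RNA was measured in bulk, so fewer cells of a type and less RNA per cell cannot be told apart.

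The 7 transcripts took a larger part of the RNA in 2 of the 3 MHFD brains and not in the other. They held 4.09%, 5.27% and 6.00% of the total count in MHFD-1, MHFD-2 and MHFD-3. In MND-1, MND-2 and MND-3 they held 4.02%, 3.94% and 4.48%. MHFD-2 and MHFD-3 lay above every MND library, while MHFD-1 lay between MND-1 and MND-3, so the groups overlapped. The mean was 5.12 ± 0.963% for MHFD and 4.15 ± 0.288% for MND (SD, n = 3 each), a difference of 0.974 percentage points. This difference was not significant in a two-sided exact permutation test over animals (p = 0.2, where 3 against 3 cannot go below 0.1). The 95% Wilson interval of a single share was at most 0.0141 percentage points wide and covers counting error only.

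**Figure D1:**
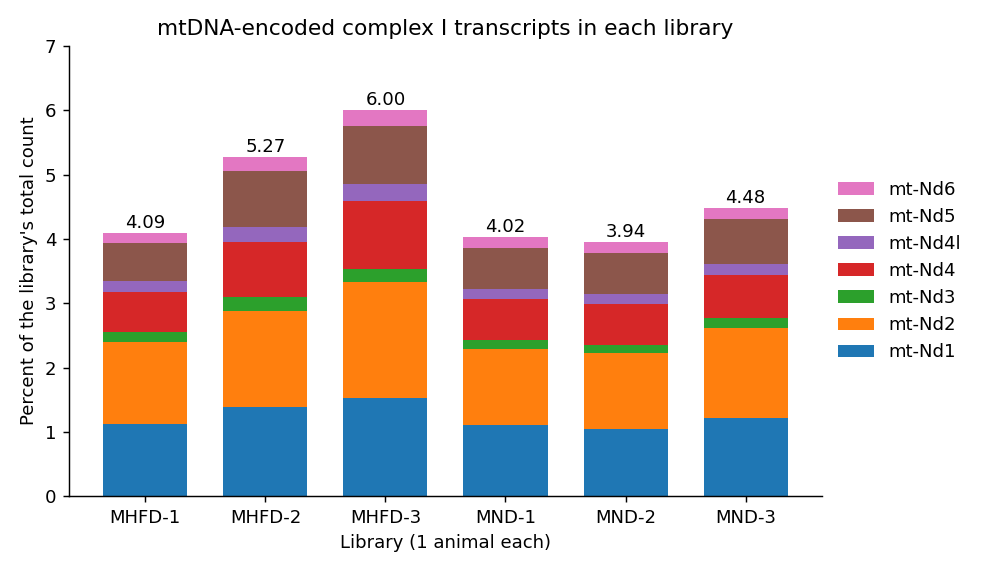
Percent of each library's total count held by the 7 mtDNA-encoded complex I transcripts, stacked by transcript, with their sum above each bar. The sums in MHFD-2 (5.27%) and MHFD-3 (6.00%) exceed all 3 MND sums, and the sum in MHFD-1 (4.09%) does not.

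The MHFD libraries with the highest shares also had the smallest totals, 43679373 counts in MHFD-3 and 46992467 in MHFD-2. Among the other 4 libraries the order was mixed. MND-3 (52568459 counts) had a higher share than MND-1 (60640093 counts) and MHFD-1 (61385917 counts, the largest total). MND-2, with 51874000 counts, had the lowest share, and MHFD-1 had a higher share than MND-1. The summed count of the 7 genes, not scaled to depth, was 2512969, 2477460 and 2622279 in MHFD-1, MHFD-2 and MHFD-3, and 2439984, 2046336 and 2353825 in MND-1, MND-2 and MND-3. All 3 MHFD sums lay above all 3 MND sums, a comparison that takes no account of the differing totals. MHFD-1 had the largest total, and its share lay inside the MND range. The 100 most abundant other genes together also took their highest shares in MHFD-3 and MHFD-2, 25.8% and 25.4%, against 23.4% to 24.1% in the other 4 libraries. The part of library size in the result was not tested.

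Gene by gene, counts were scaled to the size of the library after TMM normalization (CPM, a level relative to the whole library, not per length), and log2 fold changes are MHFD minus MND. All 7 log2 fold changes were above 0, as were 50.5% of those of the 16776 genes tested. Their median was 0.27, beside 0.0023 over all tested genes. The 7 are not separate observations. Over the same 6 libraries, each moved with the mean of the other members (Pearson r of log2 CPM from 0.945 to 0.986). mt-Nd3 and mt-Nd4l were higher in the MHFD group at an unadjusted p under 0.05, 2 of the 7, where 4.90% of all tested genes were called higher. None of the 7 was called lower, as 3.78% of all tested genes were, and 8.68% were called in either direction. None of the 7 had an adjusted p under 0.05, a threshold that 1 gene of the table passed (0.00596% of those tested, edgeR's quasi-likelihood test, 1456 genes at an unadjusted p under 0.05). The groups overlapped for each of the 7, whereas the groups parted for 13.9% of all tested genes, and for 7.12% with MHFD higher.

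Of the subunits that lie where the membrane arm meets the electron-carrying arm, mt-Nd3 had the largest log2 fold change. ND3 is a small subunit whose loop takes part in the switch between the active and the resting enzyme. mt-Nd3 was at 1503, 2126 and 2157 CPM in MHFD-1, MHFD-2 and MHFD-3, and at 1405, 1266 and 1576 CPM in MND-1, MND-2 and MND-3. Only MHFD-1 fell inside the MND range. Its log2 fold change was 0.45 (SE 0.170, adjusted p = 0.562, edgeR's quasi-likelihood test).

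mt-Nd1 encodes a core subunit that helps to form the ubiquinone-binding site. Its level was 11274, 13774 and 15295 CPM in MHFD-1, MHFD-2 and MHFD-3, and 11095, 10422 and 12408 CPM in MND-1, MND-2 and MND-3. Again MHFD-1 lay inside the MND range and the other MHFD libraries above it. The log2 fold change of mt-Nd1 was 0.25 (SE 0.151, adjusted p = 0.672, edgeR's quasi-likelihood test).

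mt-Nd4l and mt-Nd6 encode small membrane subunits that sit between the ubiquinone end and the antiporter-like subunits. mt-Nd4l was at 1697, 2195 and 2589 CPM in MHFD-1, MHFD-2 and MHFD-3, against 1611, 1598 and 1739 CPM in MND-1, MND-2 and MND-3. The MND libraries lay close together, and MHFD-1 lay among them. Its log2 fold change was 0.39 (SE 0.164, adjusted p = 0.574, edgeR's quasi-likelihood test). Its unadjusted p was only narrowly under 0.05, and 4 of the 9 other analyses of all 6 libraries put it above 0.05.

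mt-Nd6, the light-strand gene, was at 1512, 2118 and 2414 CPM in MHFD-1, MHFD-2 and MHFD-3, and at 1627, 1619 and 1763 CPM in MND-1, MND-2 and MND-3. Here MHFD-1 was the lowest of the 6 libraries and MHFD-3 the highest. The log2 fold change of mt-Nd6 was 0.27 (SE 0.178, adjusted p = 0.690, edgeR's quasi-likelihood test). Without knowledge of strand, its reads and those from the opposite strand cannot be told apart.

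mt-Nd2, mt-Nd4 and mt-Nd5 encode the antiporter-like subunits through which protons cross the membrane, ND5 lying at the far tip of the arm. mt-Nd2 was at 12784, 14763 and 17869 CPM in MHFD-1, MHFD-2 and MHFD-3, and at 11732, 11700.4 and 14144 CPM in MND-1, MND-2 and MND-3. MND-3 came close to MHFD-2 for this gene. The log2 fold change was 0.27 (SE 0.163, adjusted p = 0.670, edgeR's quasi-likelihood test).

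mt-Nd4 ranged from 6318 CPM in MHFD-1 over 8500.3 CPM in MHFD-2 to 10498 CPM in MHFD-3, the widest spread of the 7 within the MHFD group (a coefficient of variation of 24.8%). In the MND group it was 6394, 6310.4 and 6852 CPM, a coefficient of variation of 4.48%. Its log2 fold change was 0.37 (SE 0.190, adjusted p = 0.623, edgeR's quasi-likelihood test). mt-Nd5 was at 5969.5, 8693 and 9099.5 CPM in MHFD-1, MHFD-2 and MHFD-3, and at 6366, 6382 and 6989 CPM in MND-1, MND-2 and MND-3. MHFD-1 was thus below every MND library for mt-Nd5. The log2 fold change of mt-Nd5 was 0.27 (SE 0.177, adjusted p = 0.694, edgeR's quasi-likelihood test).

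The 7 transcripts followed much the same order over the animals. MHFD-3 had the highest CPM for all 7, as it did for 20.5% of all tested genes. The lowest library was MND-2 for 5 of them and MHFD-1 for mt-Nd5 and mt-Nd6. Relative to the mean log2 CPM of the 6 libraries, the 7 lay from 0.32 to 0.52 above it in MHFD-3 and from 0.11 to 0.38 above it in MHFD-2. In MHFD-1 they lay between -0.26 and -0.10, which is within the span of -0.37 to 0.05 of the MND libraries. MHFD-2 and MHFD-3 above every MND library, with MHFD-1 not above, was the order found for all 7 and for 12% of all tested genes. The median coefficient of variation of the 7 was 20.7% within MHFD and 5.40% within MND, beside 15.2% and 13.2% over all tested genes. For the 20 other genes at least as abundant as mt-Nd3 the medians were 14.2% and 10.9%. Within MND the members differed: mt-Nd1, mt-Nd2 and mt-Nd3 had 8.93%, 11.2% and 11.0%, and the others 4.48% to 5.40%.

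**Figure D2:**
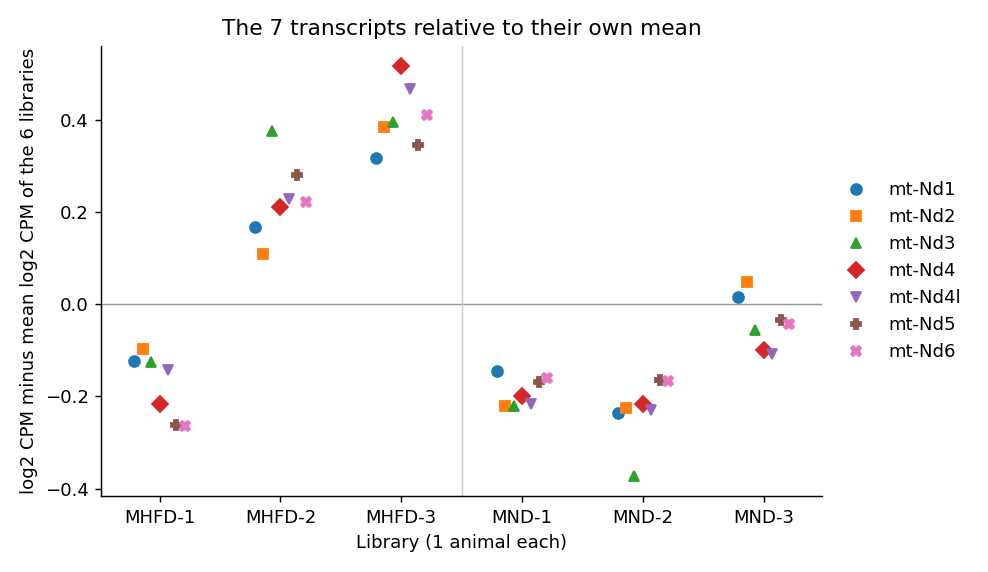
log2 CPM of each of the 7 transcripts in each library, minus that transcript's mean over the 6 libraries (1 point per transcript). All 7 points lie above 0 in MHFD-2 and MHFD-3 and below 0 in MHFD-1, MND-1 and MND-2.

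The calls therefore depended on which animals were compared. Without MHFD-1, all 7 passed an unadjusted p under 0.05, with log2 fold changes from 0.36 to 0.60, and 8.63% of the genes tested in that comparison were higher by the same rule. Their adjusted p then ran from 0.0929 to 0.242 (edgeR's quasi-likelihood test). Without MHFD-2, MHFD-3, MND-1 or MND-2, none of the 7 passed an unadjusted p under 0.05 (edgeR's quasi-likelihood test), where 2.70%, 2.95%, 3.47% and 3.92% of tested genes were called higher. The log2 fold changes ran down to 0.13 for mt-Nd6 without MHFD-3. Without MND-3, mt-Nd3 alone passed, where 5.12% of tested genes were called higher. All 7 log2 fold changes stayed above 0 in each of these 6 comparisons.

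**Figure D3:**
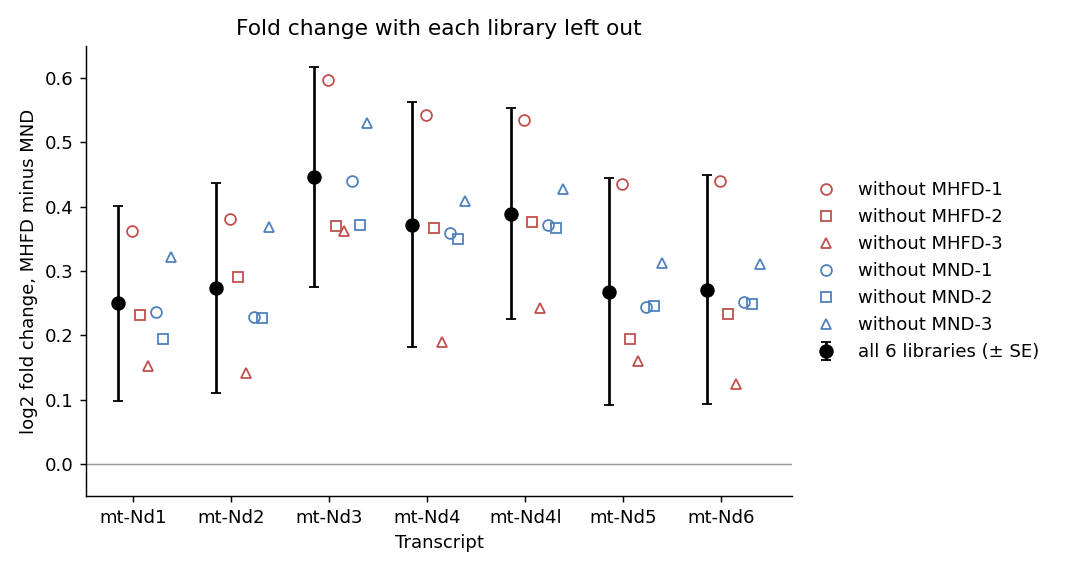
log2 fold change (MHFD minus MND) of the 7 transcripts from all 6 libraries, as filled points with the standard error, and with each library left out in turn, as open symbols coloured by the group of that library. All values are above 0. The highest come without MHFD-1, from 0.36 to 0.60, and the lowest of each transcript without MHFD-3.

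Other abundant transcripts were set beside the 7. The 20 genes whose mean was no lower than that of mt-Nd3, 1672 CPM, had a median log2 fold change of 0.08. The log2 fold change was above 0 for 12 of them and below 0 for 8, and 0 passed an unadjusted p under 0.05 in edgeR's quasi-likelihood test. The tested genes most like the mean of the 7 over the 6 libraries, among 9886 others with at least 10 CPM, were ENSRNOG00000000805 (Pearson r = 0.998) and ENSRNOG00000020185 (r = 0.995). ENSRNOG00000030700 came next (r = 0.994, log2 fold change 0.26, mean 18334 CPM) and was among the 20 abundant genes. Those 20 could not be named, so any other mtDNA-encoded transcripts among them were not set apart. ENSRNOG00000000805 was at 439, 592 and 695 CPM in MHFD-1, MHFD-2 and MHFD-3, and at 437, 424 and 500.3 CPM in MND-1, MND-2 and MND-3. In all, 327 of the 9886 genes had an r above 0.9; the points share their libraries, and with 6 of them this is a description only.

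The make-up of the complex I counts was compared next, since each transcript's part of the summed count of the 7 does not depend on how libraries are scaled. mt-Nd3 made up 3.66%, 4.08% and 3.60% of that sum in MHFD-1, MHFD-2 and MHFD-3, and 3.49%, 3.22% and 3.47% in MND-1, MND-2 and MND-3. All 3 MHFD values lay above all 3 MND values, MHFD-1 included. mt-Nd4l likewise made up 4.13%, 4.21% and 4.32% in the MHFD libraries and 4.01%, 4.07% and 3.82% in the MND libraries, again without overlap. The group means differed by 0.386 percentage points for mt-Nd3 and 0.255 for mt-Nd4l. For mt-Nd4l the nearest values were 4.13% in MHFD-1 and 4.07% in MND-2. These genes also had the largest log2 fold changes of the members (0.45 and 0.39), and parts of a common sum are not independent. How often such parts separate among other genes was not computed. Without MHFD-2 the difference for mt-Nd3 was 0.237 percentage points. In two-sided exact permutation tests each gave p = 0.1, the smallest that 3 against 3 allows, and 0.45 after adjustment over the 9 measures tested.

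For the other 5 transcripts the parts of the sum overlapped between the groups. With the MHFD value first, mt-Nd2 made up 29.8 ± 1.42% and 30.0 ± 0.994%, and mt-Nd1 26.5 ± 0.968% and 27.1 ± 0.546% (SD, n = 3 each). mt-Nd4 held 16.4 ± 1.07% and 15.7 ± 0.529%, and mt-Nd5 15.5 ± 1.09% and 15.8 ± 0.435%. mt-Nd6 held 3.92 ± 0.210% and 4.01 ± 0.125%. The exact permutation p for these 5 ran from 0.4 to 1. The count of the light-strand gene mt-Nd6 as a percent of the 6 others was 4.08 ± 0.228% for MHFD and 4.18 ± 0.135% for MND (exact permutation p = 0.6, n = 3 each). As it is not known whether strand was kept, reads of both strands may enter this ratio. The count of mt-Nd5, which lies far along the heavy-strand precursor, was 58.5 ± 5.15% of that of mt-Nd1, which lies near its start, for MHFD and 58.3 ± 2.58% for MND (exact permutation p = 1, n = 3 each).

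**Figure D4:**
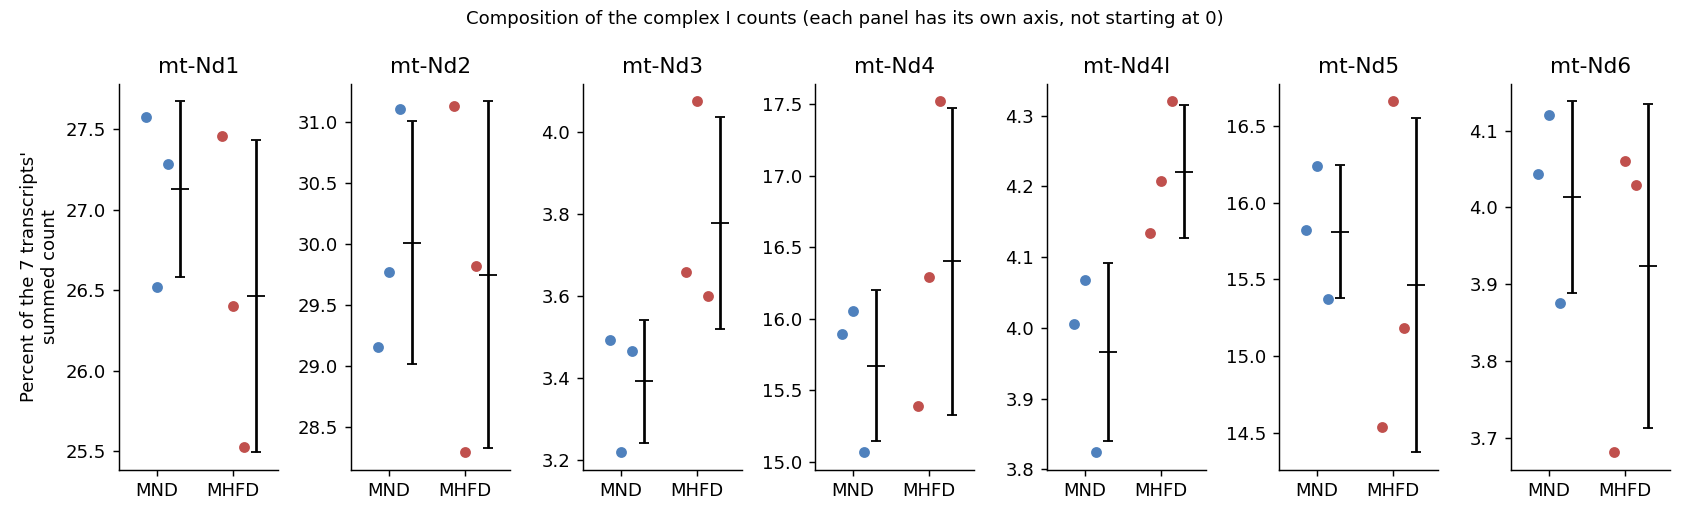
Percent of the summed count of the 7 transcripts held by each, with 1 panel per transcript and its own axis, 1 point per library, and the mean and SD of each group at its right. The MHFD points lie above the MND points for mt-Nd3 and mt-Nd4l and overlap with them for the other 5.

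Among the 21 pairs of the 7 transcripts, the ratio of counts was steadiest for the pairs that overlap in the mouse reference. The count of mt-Nd6 was 25.3%, 24.4% and 26.5% of that of mt-Nd5 in MHFD-1, MHFD-2 and MHFD-3, and 25.6%, 25.4% and 25.2% in MND-1, MND-2 and MND-3. Its coefficient of variation over the 6 libraries was 2.73%, the lowest of the 21 pairs, whose median was 6.77%. The count of mt-Nd4l was 26.9%, 25.8% and 24.7% of that of mt-Nd4 in the MHFD libraries and 25.2%, 25.3% and 25.4% in the MND libraries, with the next lowest coefficient of variation, 2.92%. Both ratios were nearly constant among the MND brains and spread more among the MHFD brains. This was not particular to overlapping pairs. In the MND group mt-Nd6 was also steady against mt-Nd4 (25.6 ± 0.147%) and against mt-Nd4l (101.2 ± 0.219%, SD, n = 3). These pairs were singled out after the values were seen, and reads that fall on the overlap can be given to either gene.

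Of the 21 ratios, 4 did not overlap between the groups, and these share members with each other. Each of the 4 holds mt-Nd3, mt-Nd4l or mt-Nd4, the members with the largest log2 fold changes. The share of ratios that part among other genes was not computed. The 13.9% of all tested genes for which the groups parted concerns single genes by CPM and is no background for ratios. The count of mt-Nd6 was 101.0%, 101.3% and 101.4% of that of mt-Nd4l in MND-1, MND-2 and MND-3. In MHFD-1, MHFD-2 and MHFD-3 it was 89.1%, 96.5% and 93.3%. mt-Nd6 was also lower against mt-Nd4, mt-Nd5 lower against mt-Nd3, and mt-Nd3 higher against mt-Nd1 in every MHFD library than in every MND library. These were noticed in the values and carry no test.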

How the data were processed

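Brain RNA of 3 MHFD and 3 MND offspring was sequenced, 1 library per animal. The authors deposited whole counts per gene, without normalization. The submitters' processing notes list Bowtie and the mouse build mm10; the identifiers are rat, and the counting program, the rat build and the annotation are not given in the sources used here. None of the 32623 identifiers (0) matched the mouse reference tables, so positions, lengths, sequences, and the planned lists of nuclear complex I, mitochondrial RNA and cell type genes were not used here, and levels were not scaled to gene length. Ranks and ratios of counts between genes therefore also reflect length and are read only across libraries.

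In R 4.3.3, genes were kept with filterByExpr (minimum count 10, minimum total 15) and tested with edgeR 4.0.16 (TMM, quasi-likelihood test, group as the only term), with Benjamini-Hochberg adjustment over all 16776 tested genes. The standard error is the log2 fold change over the square root of F; log2 CPM uses a prior count of 2. Shares and ratios were compared with two-sided exact permutation tests over the 6 animals. The genes most alike were ranked by Pearson r of log2 CPM, and the first 2 were named. The next one was added because it was also among the abundant genes. The programs were tested on simulated counts. Alternatives used DESeq2 1.42.0, limma 3.58.1, other filters and scalings, a replicate block and each library left out. No pair of libraries within a group was a copy (chi-square per gene at least 26.8). The members, lists and tests were chosen with earlier results of these data known. Whether animals of a group were littermates is not given. The p-values set the difference between groups against the spread between these animals. If pups of a group shared a dam, the p-values could not separate diet from litter.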

Additional observations from a re-analysis of the deposited data

How the results depend on the processing

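The log2 fold changes of the 7 transcripts stayed above 0 under every alternative. For mt-Nd4l the unadjusted p rose above 0.05 with limma-voom (log2 fold change 0.37), no filter on low counts (0.39), at least 10 counts in every sample (0.39) and the replicate block (0.37). In each of these, 1 member was then at an unadjusted p under 0.05 instead of 2. In the same order, 4.58%, 4.27%, 5.55% and 3.42% of tested genes were called higher. The cause was not tested. Under the other alternatives that used all libraries no transcript changed its side of 0.05. With each library left out, 0 to 7 members passed, where 2.70% to 8.63% of tested genes were called higher. The log2 fold changes then spanned 0.15 to 0.36 for mt-Nd1, 0.14 to 0.38 for mt-Nd2, 0.36 to 0.60 for mt-Nd3, 0.19 to 0.54 for mt-Nd4, 0.24 to 0.54 for mt-Nd4l, 0.16 to 0.43 for mt-Nd5 and 0.13 to 0.44 for mt-Nd6. Over all alternatives the lowest adjusted p of a transcript was 0.0929, for mt-Nd3 without MHFD-1.

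Genes with an adjusted p under 0.05 numbered 1 in edgeR's quasi-likelihood test; DESeq2's Wald test gave 196 and the likelihood-ratio test 98, none of them a member. There were 0 with limma-voom (beside 1424 at an unadjusted p under 0.05), 0 when each sample needed 10 counts or more (1482), 0 with the replicate block (1078) and 0 to 28 with each library left out. The number at an unadjusted p under 0.05 was 818 to 2904 with each library left out.

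The difference in summed share ran from 0.534 percentage points without MHFD-3 to 1.49 without MHFD-1. In the parts of the summed count, leaving out each library kept the direction for mt-Nd1 (-1.16 to -0.198 percentage points), mt-Nd3 (0.237 to 0.475), mt-Nd4 (0.168 to 1.23) and mt-Nd4l (0.184 to 0.305). It moved the difference from -0.955 to 0.465 percentage points for mt-Nd2, -0.949 to 0.112 for mt-Nd5, -0.158 to 0.0315 for mt-Nd6, -0.171 to 0.0341 for mt-Nd6 against the 6 others and -2.09 to 2.99 for mt-Nd5 against mt-Nd1. Other denominators and a log2 scale kept the directions. Replicate numbers showed no sign of pairing the animals: around their group means, libraries 1, 2 and 3 of the groups deviated with correlations of -0.0866, 0.0011 and -0.144 across genes. Whether libraries of the same number shared a litter or batch is not settled by these values. Pairing the libraries by number gave p = 0.25 for the summed share in an exact test, the smallest that 3 pairs allow.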
